A study of Mus musculus with 20 samples.

Results

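The genes described here are 10 fibroblast markers and matrix proteoglycans, Dcn, Lum, Bgn, Fmod, Vcan, Fn1, Pdgfra, Fap, Pdpn and Postn. They were taken by gene symbol from a count table of 55866 genes, and all 10 were found. The libraries came from female C57BL/6J mice labelled Rpl22HA/HA x Cdh5CreERT2 (RiboTagEC), in which tamoxifen-activated Cre under the endothelial Cdh5 promoter adds a hemagglutinin (HA) tag to the ribosomal protein Rpl22. Every mouse was given tamoxifen (75 mg/kg, 5 days) at the age of 3 weeks, and at 8 weeks cells of 1 mouse mammary carcinoma line, Py8119, were implanted in a mammary fat pad. Tumors were treated for 10 days with 25 mg/kg of 6-3-A6, a mouse antibody that blocks Notch4, or with control mouse IgG. From each of 10 tumors, 5 per treatment, RNA of the whole homogenate (input) and RNA recovered with anti-HA beads (IP) were sequenced, which gave 20 libraries. The tag is carried by host endothelial cells and not by the implanted carcinoma cells or by host fibroblasts, while the homogenate holds RNA of all cells of the tumor.

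Fibroblasts build the interstitial matrix, and the 10 genes cover several parts of that work. Decorin (Dcn), lumican (Lum), biglycan (Bgn) and fibromodulin (Fmod) are small leucine-rich proteoglycans that bind collagen fibrils and help set their thickness, and versican (Vcan) is a large chondroitin sulfate proteoglycan that binds hyaluronan. Fibronectin (Fn1) and periostin (Postn) are matrix glycoproteins bound by integrins, Pdgfra is the receptor that PDGF-A activates on fibroblasts, Fap is a serine protease of activated fibroblasts, and podoplanin (Pdpn) is a membrane mucin of fibroblasts and lymphatic endothelium that binds the platelet receptor CLEC-2.

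Between 11881214 and 26728205 counts fell on genes in a library (median 16942643). TMM factors, which correct totals for composition, lay between 0.68 and 1.12, the lowest in 6-3-A6 input replicate 4. For all 10 6-3-A6 libraries a second label names the other fraction, and the fraction in the title was followed here. In that assignment the 17 genes of an endothelial list all rose in IP, with a median log2 difference of 4.55. After a principal component plot the study set aside 4 of the 10 IP libraries, which left control IgG replicates 2, 4 and 5 and 6-3-A6 replicates 1, 3 and 4. The summed endothelial level was lowest in control IgG IP replicate 4 (1481 CPM) and 6-3-A6 IP replicate 2 (1172 CPM), against a median of 4749.7 CPM over the 10 IP libraries. CPM is a gene's count scaled to a common library size with the TMM factors.

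Every member passed the filter on low counts in all comparisons, and all were detected in every library. Counts in the table run over whole gene spans, introns included, and other annotated genes covered at most 4.19% of a member's span (Vcan). Dcn and Lum are neighbors on chromosome 10 with 46984 bp between them (Dcn at chr10:97315471-97354005 and Lum at chr10:97400990-97408565, both on the plus strand). Also on the plus strand are Bgn (chrX:72527208-72539539), Fmod (chr1:133964992-133976015), Pdgfra (chr5:75312953-75358876) and Postn (chr3:54268530-54298458). On the minus strand are Vcan (chr13:89803431-89890628), Fn1 (chr1:71624679-71692359), Fap (chr2:62331287-62404419) and Pdpn (chr4:142994001-143026134). The same spans of GENCODE M21 (GRCm38) had equal lengths and different starts for all 10, so these coordinates were read as GRCm39, although the labels name mm10 and the human build GRCh38.

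The levels of Bgn and Postn ran together across input libraries (Pearson r = 0.817, n = 10), so the 60 bases before their start sites are shown, from RefSeq windows of GRCm38.p6, 5′ to 3′ on the plus strand. Capitals mark TATAAA, searched on the sense strand, and GGGCGG, searched on both strands (CCGCCC on the strand shown).
Postn (chr3:54361047-54361106): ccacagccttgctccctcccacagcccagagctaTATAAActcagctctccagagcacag
Bgn (chrX:73483541-73483600): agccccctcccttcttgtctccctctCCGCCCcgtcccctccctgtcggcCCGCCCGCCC

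TATAAA began 26 bases before the start of this Postn window, and a second Postn window, farther upstream, held none. GGGCGG was found 3 times on the minus strand of the Bgn window, at 34, 10 and 6 bases before the start, the last 2 of them overlapping. Within 250 bases before the start, TATAAA occurred in 7.59% and GGGCGG in 32.7% of 32851 windows. Of 7 windows of 6 members (Bgn, Fmod, Pdgfra, Pdpn, Postn and Vcan), 1 held TATAAA, 2 held GGGCGG and 1 held CCAAT on either strand, which occurred in 33.8% of all windows. No window was matched for Dcn, Lum, Fn1 and Fap.

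Fn1 was by far the most abundant member and Fmod and Fap the least. On the scale of CPM per kilobase of exon, Fn1 was at 269.9 ± 85.9 in input and 317 ± 248 in IP (mean ± SD, n = 10 each), 68.7% and 76.9% of the summed level of the 10 members. Bgn (46.8 ± 21.9 in input, 26.8 ± 9.83 in IP) and Postn (34.6 ± 18.0 and 38.9 ± 28.2) came next and changed places between the fractions, and their ranges overlapped in both. Pdpn, Pdgfra, Dcn and Lum formed a middle group between 14.4 and 5.74 CPM per kilobase in both fractions. Vcan, Fmod and Fap were all below 1 in the mean of either fraction. Libraries did not overlap between Fn1 and the next gene, between the third and the fourth gene, or between the seventh gene and Vcan, in input as in IP, and all other neighbors in the order overlapped. Since introns were counted and the scale uses exons, levels of members with long introns are less exact on it.

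**Figure D1:**
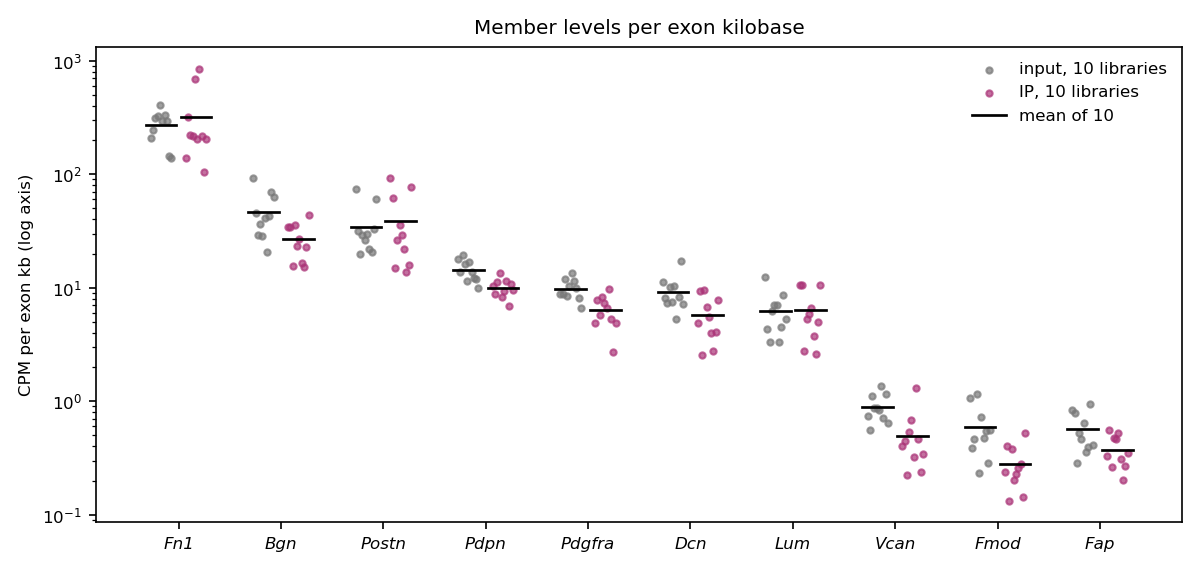
Level of each member in CPM per exon kilobase (log axis) in the 10 input and 10 IP libraries, one point per library, with the mean as a line. Fn1 stands above all other members, and Vcan, Fmod and Fap lie apart below the others.

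Depth limited the rarest members. Fmod had 8 to 68 counts per library and 508 over all 20, Fap had 19 to 85 and 907 in all, and Vcan had 59 to 561 and 3512 in all. Fn1 had 16059 to 205984 counts per library. The spread between tumors was smallest for Pdgfra in control IgG input (coefficient of variation 14.9%) and largest for Fn1 in 6-3-A6 IP (95.5%).

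IP was compared with input to see how the relative levels of the members differed between the tagged fraction and the homogenate. The RNAs of 6 members fell in IP, those of the proteoglycans Dcn, Bgn, Fmod and Vcan, the receptor Pdgfra and the mucin Pdpn, with log2 differences of −0.52 to −1.07. Lum, Fn1 and Postn were not called, with log2 differences of 0.03 to 0.24, and neither was Fap, with −0.59. In numbers, 6 of 10 members were called lower and 0 higher (edgeR quasi-likelihood test over 20 libraries with the treatment as a term, adjusted p under 0.05). Of 14488 genes tested, 20.8% were called lower and 40.4% in either direction. The median log2 difference was −0.62 over the members and −0.06 over all genes. For each member the input and IP libraries overlapped, while 4.8% of all genes tested had fractions that did not overlap.

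Among the small leucine-rich proteoglycans, Dcn in control IgG tumors was at 65.4, 47.3, 42.5, 58.6 and 43.7 CPM in input and at 28.7, 54.5, 14.8, 55.8 and 39.6 CPM in IP. In 6-3-A6 tumors it was at 60.6, 31.2, 48.7, 100.5 and 41.5 CPM in input and at 32.5, 23.3, 16.1, 24.0 and 45.8 CPM in IP. IP was below input in 8 of 10 tumors, the exceptions being control IgG 2 and 6-3-A6 5. The log2 difference was −0.70 (SE 0.24, edgeR adjusted p = 0.0256), and it passed the test no longer without 6-3-A6 input replicate 4 (−0.52, adjusted p = 0.0586) or without 6-3-A6 IP replicate 3 (−0.61, adjusted p = 0.0501).

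Bgn was at 559, 278, 177, 223 and 176 CPM in control IgG input and at 249, 126, 259, 427 and 382 CPM in 6-3-A6 input. Its IP levels were 209, 207, 94.0, 215 and 143 CPM and at 164, 100.2, 92.4, 140.2 and 268 CPM. All 10 tumors had less Bgn in IP than in input, from a log2 ratio of −0.05 in control IgG 4 to −1.61 in 6-3-A6 4. The edgeR estimate was −0.81 (SE 0.25, adjusted p = 0.0153).

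Fmod, the least abundant of these related proteoglycans, had the largest difference. It ranged from 0.769 to 3.84 CPM with a median of 1.68 in input and from 0.439 to 1.74 CPM with a median of 0.817 in IP. The log2 difference was −1.07 (SE 0.31, edgeR adjusted p = 0.00993), and 9 of 10 tumors had the lower value in IP.

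Lum, the genomic neighbor of Dcn, did not follow it. In input it was at 30.7, 10.5, 8.10, 15.2 and 17.4 CPM in control IgG tumors and at 17.4, 8.21, 10.97, 21.04 and 12.9 CPM in 6-3-A6 tumors. In IP it was at 26.0, 25.8, 6.75, 13.1 and 14.2 CPM and at 16.2, 9.24, 6.36, 12.1 and 25.9 CPM. The fractions overlapped over most of their ranges (8.10 to 30.7 CPM in input, 6.36 to 26.0 CPM in IP). The log2 difference was 0.03 (SE 0.28, edgeR adjusted p = 0.945). Lum was higher in IP in 3 tumors, by 1.29 in control IgG 2, 1.00 in 6-3-A6 5 and 0.17 in 6-3-A6 2.

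Vcan was at 10.7, 8.12, 16.1, 12.7 and 12.6 CPM in control IgG input and at 12.0, 19.5, 10.3, 16.6 and 9.22 CPM in 6-3-A6 input. The IP libraries held 5.78, 6.49, 3.24, 7.75 and 9.93 CPM and at 4.67, 18.7, 6.74, 3.42 and 4.92 CPM. The value of 6-3-A6 IP replicate 2 stood far above those of the other IP libraries, yet IP was below input in 10 of 10 tumors. It differed by a log2 value of −0.84 (SE 0.26, edgeR adjusted p = 0.0154).

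The glycoprotein Fn1 was at 2425, 2857, 3673, 3812 and 4735 CPM in control IgG input and at 3409, 3883, 3452, 1681 and 1608 CPM in 6-3-A6 input. Fn1 in IP was at 1628, 3704, 2611, 2515 and 8083 CPM and at 2397, 9934, 2542, 1215 and 2391 CPM. IP values were spread more widely than input values, with control IgG 5 and 6-3-A6 2 far above the others. Its log2 difference was 0.24 (SE 0.33, edgeR adjusted p = 0.581), and it was −0.14 without 6-3-A6 IP replicate 2.

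Postn was at 644, 274, 172, 254 and 229 CPM in control IgG input and at 259, 190.2, 181, 283 and 521 CPM in 6-3-A6 input. Postn in IP was at 809, 536, 129, 228 and 308 CPM and at 255, 189.9, 119, 139 and 669 CPM. The same tumors, control IgG 1 and 6-3-A6 5, were highest in both fractions of their treatment. The log2 difference was 0.14 (SE 0.35, edgeR adjusted p = 0.762). Without control IgG IP replicate 1 it was −0.06 and without 6-3-A6 IP replicate 5 it was −0.14, so no direction is given for Postn.

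For the cell surface members, Pdgfra was at 88.9, 89.1, 120.0, 85.5 and 104 CPM in control IgG input and at 134, 116, 99.3, 80.9 and 66.4 CPM in 6-3-A6 input. Its IP levels were 49.3, 78.1, 57.1, 83.7 and 73.3 CPM and at 66.1, 97.4, 52.6, 27.4 and 49.1 CPM. IP was lower in 10 of 10 tumors, and within control IgG all IP libraries lay below all input libraries, as they did for 4.22% of all genes. Pdgfra had a log2 difference of −0.64 (SE 0.18, edgeR adjusted p = 0.00732).

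Pdpn was at 32.4, 25.2, 35.1, 29.4 and 20.96 CPM in control IgG input and at 30.8, 24.9, 22.1, 21.7 and 18.2 CPM in 6-3-A6 input. In IP it was at 18.8, 16.1, 20.3, 24.7 and 15.1 CPM and at 16.9, 20.7, 12.6, 19.5 and 17.3 CPM. It was lower in IP in 10 of 10 tumors with the smallest SE of the members (log2 difference −0.52, SE 0.13, edgeR adjusted p = 0.00380). Pdpn also marks lymphatic endothelium, and of the 5 tested genes of a lymphatic endothelial list, Prox1 (1.19), Flt4 (4.10) and Mmrn1 (1.75) rose in IP, while Lyve1 (0.34) and Reln (0.45) were not called.

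Fap was at 1.62 to 5.34 CPM in input, with a median of 2.81, and at 1.14 to 3.18 CPM in IP, with a median of 1.93. Its log2 difference of −0.59 (SE 0.24) missed the threshold at an edgeR adjusted p of 0.0559. With the tumor as a block, since input and IP came from 1 homogenate, Fap was called (−0.55, edgeR adjusted p = 0.0314) and Lum, Fn1 and Postn were at −0.03, −0.01 and −0.01. That fit called 51.0% of all genes in either direction and 26.2% lower. When libraries were scaled by their totals alone, the median over all genes shifted by 0.18 on the log2 scale, calls were 3944 higher and 1721 lower in place of 2842 and 3014, and 3 members (Bgn, Fmod and Vcan) remained called lower.

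**Figure D2:**
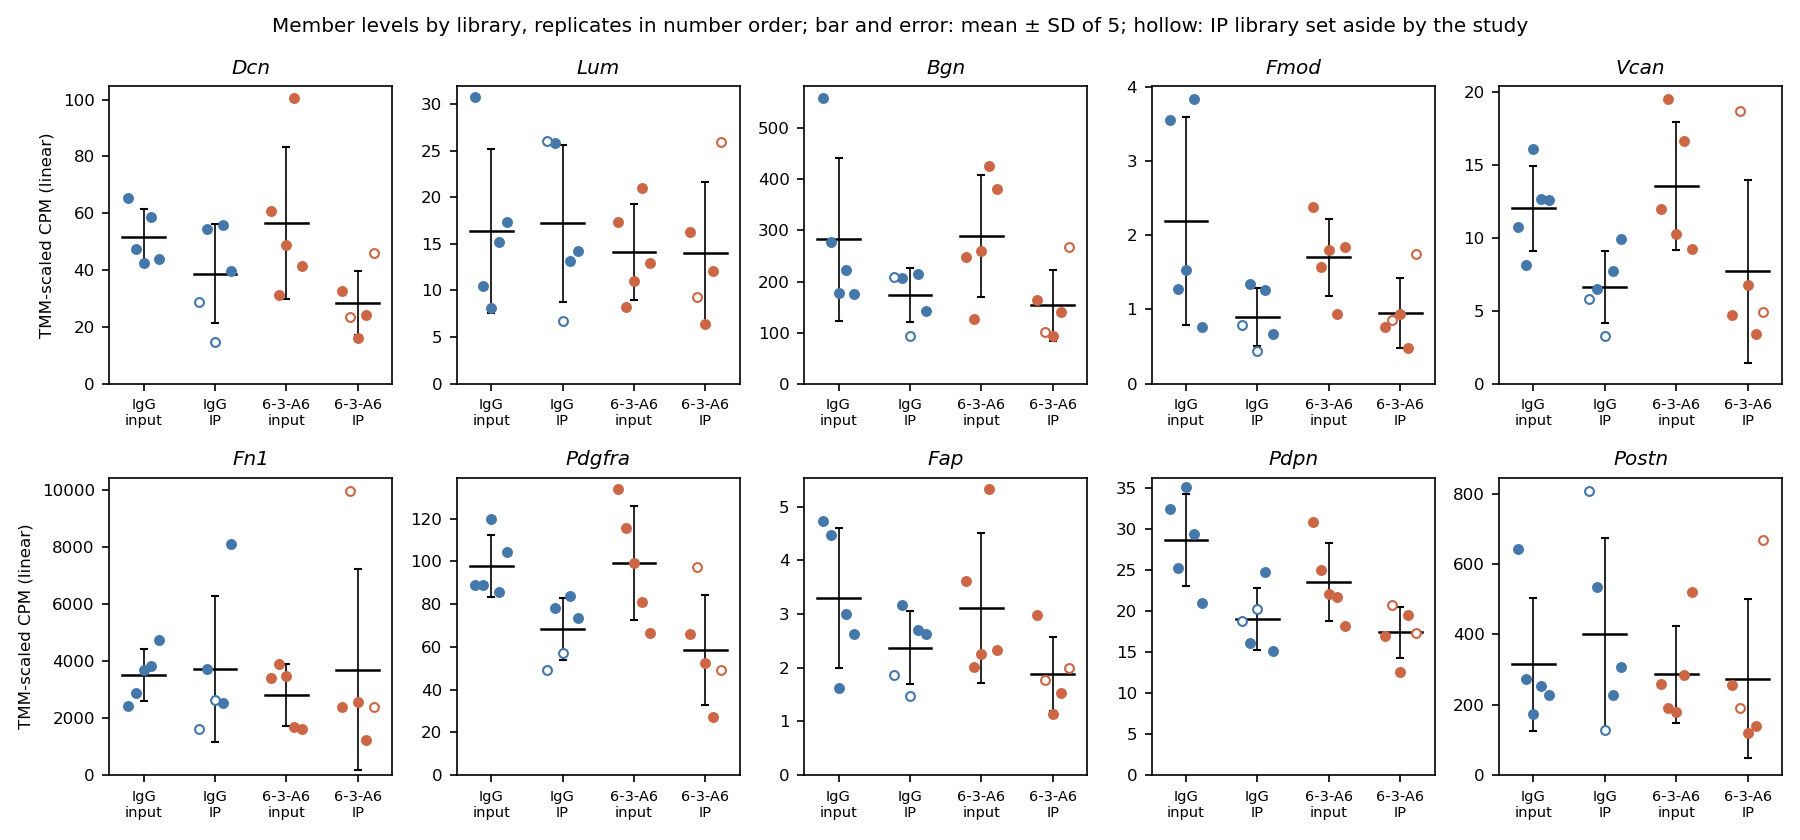
TMM-scaled CPM (linear axes from 0) of each member in the 20 libraries by group, one point per library in the order of replicate numbers, with mean ± SD of 5. Hollow points are IP libraries that the study set aside; control IgG and 6-3-A6 IP libraries overlap for every member.

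The ratio of IP to input in single tumors showed how the members differed among themselves. Mean log2 ratios over 10 tumors were −0.97 for Vcan, −0.94 for Fmod, −0.76 for Bgn, −0.75 for Dcn, −0.68 for Pdgfra, −0.53 for Fap and −0.51 for Pdpn. They were −0.02 for Lum, −0.01 for Postn and −0.00111 for Fn1. In an exact sign-flip test (two-sided, 10 tumors, 45 pairs of members, adjusted over the pairs) 16 pairs differed, and each of them set Lum, Fn1 or Postn against one of the other members. Vcan and Fn1 differed by −0.96 ± 0.64 (SD), with the same sign in 10 of 10 tumors, and Fmod and Fn1 by −0.93 ± 0.56, also in 10 of 10 (both exact p = 0.00195, the smallest that 10 tumors allow, adjusted p = 0.0251). Dcn and its neighbor Lum differed by −0.73 ± 0.51, with the same sign in 8 of 10 tumors (exact adjusted p = 0.0293). Lum, Fn1 and Postn differed from Dcn, Bgn, Fmod, Vcan and Pdgfra at exact adjusted p values between 0.0251 and 0.0352, and Postn differed from Fap at 0.0494. This test was added after the data had been seen, and the pairs share tumors and members.

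**Figure D3:**
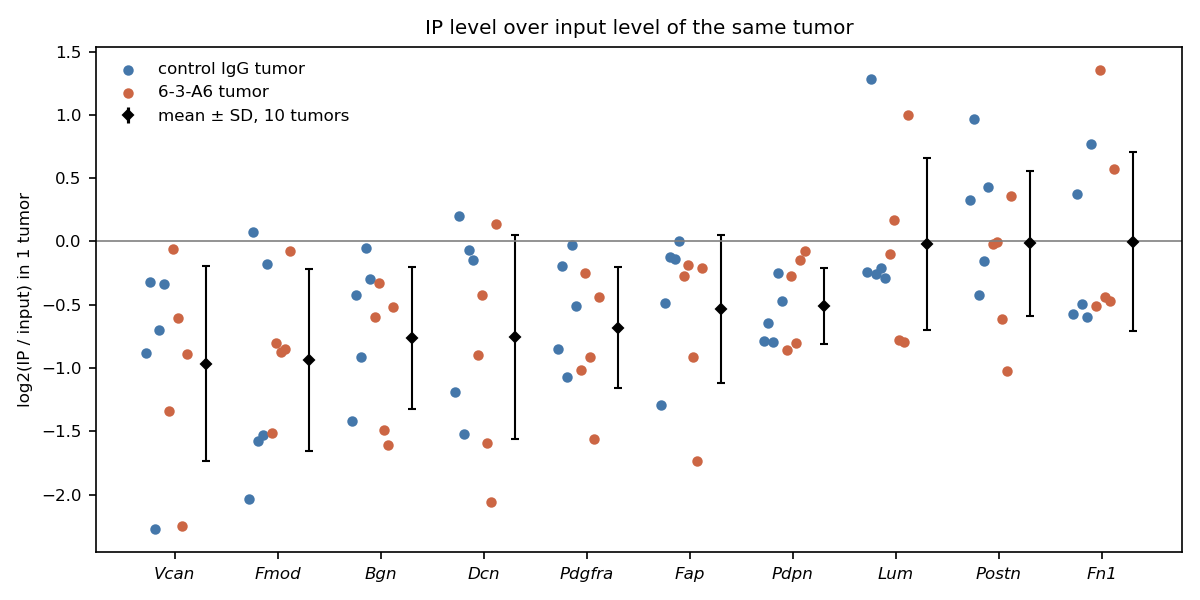
Log2 ratio of IP to input in each of 10 tumors for the 10 members, ordered by the mean (diamond, ± SD), with control IgG tumors in blue and 6-3-A6 tumors in orange. Bgn, Vcan, Pdgfra and Pdpn lie below 0 in all 10 tumors, and Lum, Postn and Fn1 center on 0.

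Markers of other cell types moved between the fractions as well. All 12 tested macrophage markers were lower in IP in the estimate and 7 were called, with a median of −0.79, and the summed macrophage level was 6260 to 15182 CPM in input and 3204 to 8882 CPM in IP. Of 5 tested lymphoid markers 3 fell, of 8 mural markers 1 rose and 1 fell, of 6 epithelial markers 2 fell, of 8 genes of a mesenchymal tumor state 3 fell and 1 rose, and of 4 adipocyte markers 0 passed the test. The part that any of these differences has in the values of the members was not tested.

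Other genes of matrix and fibroblast biology were read from lists chosen with the members. Among other small leucine-rich proteoglycans 3 of 6 tested genes fell in IP and 0 rose, including Chadl (−1.52, SE 0.34) and Podnl1 (−0.98, SE 0.14). Aspn, Ogn, Omd and Ecm2 lie wholly within the span of Cenpp and Chad within that of Acsf2, and these 5 genes had 0 counts in all libraries, so they could not be measured in this table. Among hyaluronan-binding proteoglycans and link proteins 3 of 5 fell, including Hapln4 (−1.34, SE 0.24) and the hyaluronan receptor Cd44 (−1.02, SE 0.17). Of 14 other tested proteoglycans 8 fell and 0 rose, with the lubricant Prg4 (−1.65, SE 0.51) and syndecan-4, Sdc4 (−1.14, SE 0.19), lowest. Esm1 and Gpc2 of that list could not be measured either. Both had 0 counts in all libraries, and other genes cover 100% and 99.3% of their spans. The medians of these lists were −0.72, −0.64 and −0.91, each below the −0.06 of all genes.

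The enzymes that build chondroitin and dermatan sulfate chains went both ways, with 4 higher and 3 lower of 19 tested. Csgalnact1, which starts chondroitin sulfate chains, rose by 1.86 (SE 0.24) and Dsel, an epimerase, by 1.01 (SE 0.19), while Ust, a uronyl sulfotransferase, was at −0.73 (SE 0.16) and Csgalnact2 at −0.55 (SE 0.15), both called lower. Of 20 other fibroblast genes 7 fell and 1 rose. Counted in either direction, the called shares of the enzymes and of the fibroblast genes were near the 40.4% of all genes and set neither list apart. By direction, the 7 of 20 fibroblast genes called lower stand beside 20.8% of all genes called lower. In the estimate 17 of these 20 were negative and 3 positive, with a median of −0.43 against −0.06 over all genes. Dermatopontin (Dpt, −1.26, SE 0.26) and Mfap5 (−1.13, SE 0.26) were lowest, and Fstl1 rose by 1.19 (SE 0.26). Among 16 ligands and receptors of the members, 3 rose and 5 fell. Integrin beta 3 (Itgb3, 3.42, SE 0.30) and Pdgfb (2.50, SE 0.25) rose, with no overlap between fractions, and the Fap relative Dpp4 (−0.96, SE 0.29) and Egfr, a receptor that decorin binds (−0.79, SE 0.19), fell. All adjusted p values of genes named in this and the preceding paragraph were at most 0.0142 (edgeR).

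Within control IgG tumors only Pdpn was called (−0.59, SE 0.19, edgeR adjusted p = 0.0466; 11.4% of all genes were called in either direction). Within 6-3-A6 tumors Dcn (−0.99, SE 0.34, edgeR adjusted p = 0.0361) and Pdgfra (−0.76, SE 0.26, adjusted p = 0.0324) were called, where 26.3% of all genes were. With 1 library left out at a time, Pdpn remained called in 7 of 20 fits (edgeR adjusted p 0.0249 to 0.131), Dcn in 14 of 20 (0.0138 to 0.135) and Pdgfra in 14 of 20 (0.00516 to 0.0913). With the tumor as a block these became 2 members (Fmod and Pdpn) in control IgG, where 22.4% of all genes were then called, and 5 members (Dcn, Bgn, Vcan, Pdgfra and Pdpn) in 6-3-A6, where 38.3% were. The difference between the treatments in the change from input to IP was tested itself, and 0 members and 0% of 14488 genes were called in edgeR (125 genes at an unadjusted p under 0.05; DESeq2 also called 0). It was largest for Dcn (−0.58, SE 0.48) and Fmod (0.45, SE 0.63) in the fit without a block. With the tumor as a block it was largest for Postn (−0.49, SE 0.31) and Dcn (−0.43, SE 0.44), and Fmod was at 0.26 (SE 0.53).

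6-3-A6 was then compared with control IgG in whole tumor RNA, where fewer cells of a type and less RNA per cell cannot be told apart. No member was called in input, with 0% of 13683 genes called (edgeR; 180 genes at an unadjusted p under 0.05, and 0 by DESeq2). Log2 differences lay between −0.38 (Fmod, SE 0.45) and 0.16 (Vcan, SE 0.26), with SEs of 0.20 (Pdpn) to 0.45. Groups overlapped for each member. Mean levels in control IgG and 6-3-A6 were 51.5 ± 10.0 and 56.5 ± 26.8 CPM for Dcn, 282 ± 160.4 and 289 ± 119 CPM for Bgn, and 3500.3 ± 897 and 2807 ± 1077 CPM for Fn1 (SD, n = 5).

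In IP the answer depended on which libraries were compared. Over the 6 kept libraries all 10 members were lower in the estimate after 6-3-A6, with log2 differences of −0.21 (Pdpn) to −1.25 (Fn1), and only Dcn passed the test. Its 3 control IgG libraries were at 54.5, 55.8 and 39.6 CPM and its 3 6-3-A6 libraries at 32.5, 16.1 and 24.0 CPM, without overlap. The log2 difference was −1.07 (SE 0.26, edgeR adjusted p = 0.0436), beside 4.61% of 13999 genes called in either direction and 2.04% called lower. Pdgfra (78.1, 83.7 and 73.3 CPM against 66.1, 52.6 and 27.4 CPM) also had groups that did not overlap but was not called (−0.71, SE 0.28, edgeR adjusted p = 0.185). Of all genes tested, 10.7% did not overlap and were lower after 6-3-A6.

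Fn1 (−1.25, SE 0.45, edgeR adjusted p = 0.148) and Postn (−1.09, SE 0.36, adjusted p = 0.121) had differences as large as that of Dcn but a wider spread. Without control IgG IP replicate 5 Fn1 was at −0.62, and without control IgG IP replicate 2 Postn was at −0.64. DESeq2 called these 2 members and Dcn, where it called 4.11% of genes lower. The call of Dcn was lost without control IgG IP replicate 2 (−0.97, edgeR adjusted p = 0.103) or 4 (−0.96, 0.125), without 6-3-A6 IP replicate 3 (−0.84, 0.163) or 4 (−1.07, 0.124), and with library totals alone (−0.99, 0.0604), while the difference stayed at a similar size.

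Over all 10 IP libraries 0 members and 0% of 13602 genes were called (edgeR; 292 genes at an unadjusted p under 0.05, and 0 by DESeq2). Groups overlapped for each member, beside 0.206% of all genes whose groups did not overlap. Dcn was at −0.45 (SE 0.36), Postn at −0.55 (SE 0.55), Fn1 at −0.02 (SE 0.57) and Pdpn at −0.13 (SE 0.19), and Vcan (0.19, SE 0.45) and Fmod (0.08, SE 0.41) were positive. The 6 kept libraries are part of these 10, so both sets of values share libraries.

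**Figure D4:**
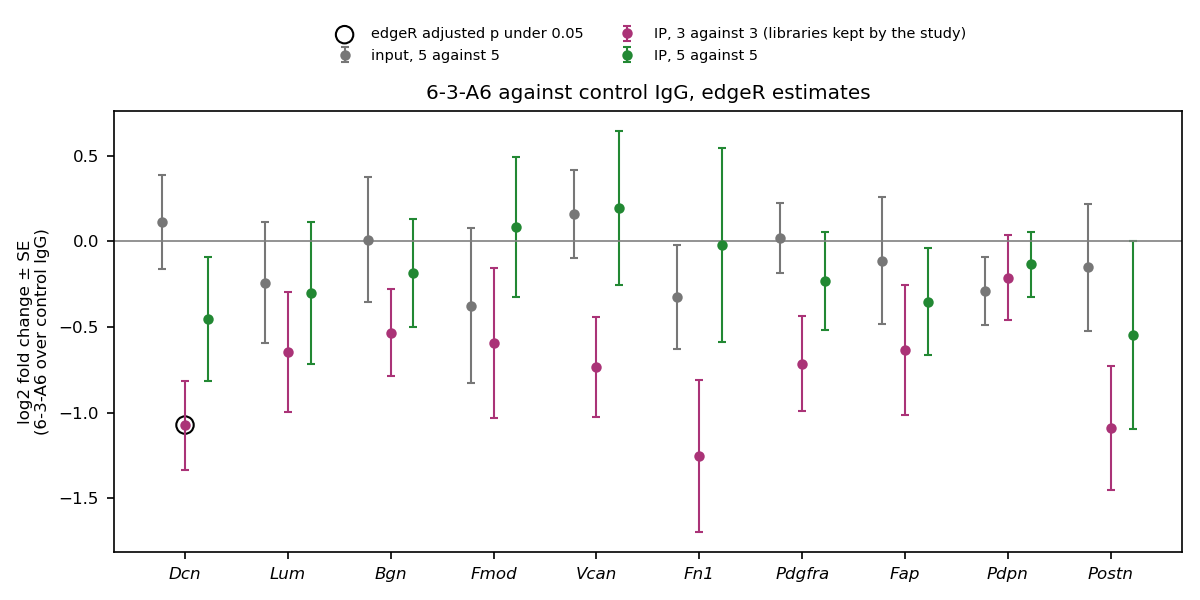
Log2 fold change of 6-3-A6 over control IgG with its standard error (edgeR) for each member in input (5 against 5), in the 6 kept IP libraries (3 against 3) and in all 10 IP libraries (5 against 5); a ring marks an adjusted p under 0.05. The ring is on Dcn in the 3 against 3 comparison alone.

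Beside the comparison of 6 libraries, other cell type markers differed in the same libraries. All 17 endothelial markers were higher after 6-3-A6 in the estimate and 6 were called, and their summed level was 1481 to 4693 CPM in the 3 control IgG and 4615 to 6006 CPM in the 3 6-3-A6 libraries. All 12 tested macrophage markers were lower and 6 were called, with a summed level of 6465 to 7584 CPM against 3204 to 3797 CPM. All 6 epithelial markers were lower in the estimate and 2 were called (median −0.98), with summed levels of 317 to 386 CPM against 167 to 233 CPM. All 4 adipocyte markers were lower and 0 were called (median −1.16), with 45.2 to 52.4 CPM against 7.84 to 32.9 CPM. Other lists were mixed. Of 8 genes of the mesenchymal tumor state 3 were higher and 5 lower, with 1 called lower. Their summed level was 4117 to 4934 CPM in control IgG and 5654 to 5886 CPM in 6-3-A6. Of 8 mural markers 2 were higher and 6 lower, with 1 called in each direction. With the mean endothelial log2 level as a covariate Dcn was at −1.13 with an SE of 0.43 (edgeR adjusted p = 0.675). That fit called 1 gene in all (0.00714%), so its count of 0 members says nothing about them. The part of these cell types in the values of the members was not tested beyond that. Of other list genes, the fibroblast genes Serpinf1 (−1.42, SE 0.27) and Fbln2 (−1.33, SE 0.26), the integrin subunit Itgav (−1.29, SE 0.26), Tgfbi (−1.07, SE 0.23), Cd44 (−1.11, SE 0.26) and the glypican Gpc4 (−0.82, SE 0.20) fell. Among 20 other fibroblast genes 6 fell and 0 rose, with a median of −0.69 against −0.05 over all genes.

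Across the 10 IP libraries Vcan was lower where the endothelial level was high (Pearson r = −0.835, permutation p = 0.00163, adjusted over 10 members p = 0.0163; Spearman rho = −0.818, permutation p = 0.00594, adjusted p = 0.0594). Without the 2 libraries farthest from the median endothelial level, control IgG IP replicate 4 and 6-3-A6 IP replicate 2, r was −0.773 (n = 8, permutation p = 0.0213, adjusted p = 0.106), about as large but no longer past the adjustment. Pdgfra (r = −0.709) and Fn1 (r = −0.702) did not pass the adjustment (both permutation adjusted p = 0.0852). For the other 7 members r lay between −0.400 (Pdpn) and 0.136 (Lum). Without the same 2 libraries r was −0.875 for Fn1 and −0.483 for Pdgfra, and it turned to 0.500 for Pdpn, none past the adjustment (permutation adjusted p = 0.0814, 0.433 and 0.433). With treatment means subtracted, r of Vcan was −0.838 (permutation adjusted p = 0.0219).

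Postn in IP followed Postn in the input of the same tumor (r = 0.847, permutation p = 0.00123, adjusted over 10 members p = 0.0123; rho = 0.770, permutation p = 0.0124, adjusted p = 0.0621). Without control IgG 1 and 6-3-A6 5, the tumors farthest from the median, r was 0.576 and rho 0.548 (n = 8, permutation adjusted p = 0.447 and 0.572). Both were smaller, and r was no longer past the adjustment, which rho had not passed over 10 tumors either. With library totals alone r was 0.912 and rho 0.939 over all 10 tumors (permutation adjusted p = 0.000600 and 0.00240). With treatment means subtracted r was 0.868. Fn1 had r = 0.669 and rho = 0.794 (permutation adjusted p = 0.161 and 0.0621), and Dcn had r = 0.0321.

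The members did not vary together as 1 group. In input, Bgn was most like Postn (r = 0.817), Dcn like Fap (0.784), Lum like Fap (0.739) and Fn1 like Pdgfra (0.734), while Bgn and Fn1 ran in opposite directions (−0.802). In IP, Lum was most like Postn (0.939) and Bgn like Lum (0.912), Dcn like Bgn (0.857) and Vcan like Fn1 (0.834). The median r over 45 pairs was 0.0621 in input and 0.249 in IP, and 25 and 35 pairs were positive. These are descriptions over 10 libraries, in each of which all members share the tumor, the depth and the scaling. In both fractions all pairs among Bgn, Postn, Lum, Dcn, Fap and Fmod were positive, and so were all pairs among Fn1, Vcan and Pdgfra. These sets were read from the same values, so their positive signs are no separate result. Pdpn belongs to neither set, and some pairs within them were weak, such as Fmod and Fap in input (0.0621). Pairs across these sets were positive in some cases too, such as Fap and Pdgfra in IP (0.52).

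**Figure D5:**
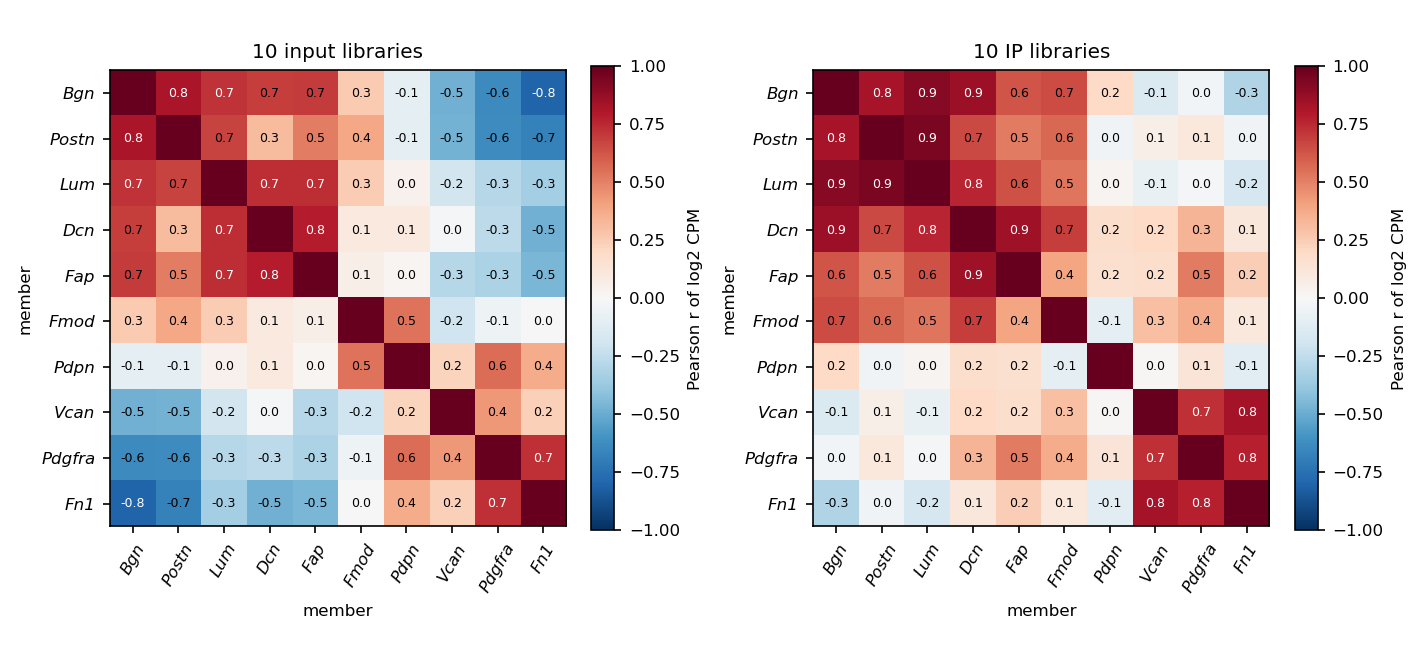
Pearson r of log2 CPM between members over 10 input libraries (left) and 10 IP libraries (right), rounded to 1 decimal. Pairs among Bgn, Postn, Lum, Dcn, Fap and Fmod are positive in both, as are pairs among Fn1, Pdgfra and Vcan.

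Of genes outside the members, those most like the members' mean standardized level were Lox (r = 0.873), which encodes an enzyme that crosslinks collagen, Atl2 (0.868), Rian (0.863), Ssr1 (0.861) and Siah1b (0.860) among 13673 genes in input. In IP they were Nnt (0.968), Itih2 (0.958), Nacc2 (0.945), Adamts14 (0.939), which encodes a procollagen protease, and B4galnt4 (0.935) among 13592 genes. These are the highest r of all genes ranked, over 10 libraries per fraction. How high r runs by chance in such a ranking was not tested, so the named genes are a description alone.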

How the data were processed

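RNA of input and HA immunoprecipitates from 10 tumors was sequenced (reads of 100 bases). Per the methods and labels, the authors aligned reads with STAR 2.7.4a and counted them per gene with featureCounts (1.5.2 and 2.0.1 are both named in the submitters' processing notes), and deposited raw counts over whole gene spans, with strand use not given in the sources used here. A second deposited table holds a signal, the counts of 6 IP libraries divided by DESeq2 size factors by the authors. It served only to identify the kept libraries (constant ratio to the raw counts within 1e-06 for 100% of genes), and its fold changes and p-values were not used.

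Groups came from sample titles. Counts were tested with edgeR 4.0.16 (quasi-likelihood, TMM, filterByExpr, Benjamini-Hochberg, threshold 0.05) in R 4.3.3, and the procedure was tested on simulated data. Alternatives used DESeq2 1.42.0, limma 3.58.1 (voom with sample quality weights), other scalings, no filter, a tumor or replicate block, an endothelial covariate and each library left out. Log2 CPM used a prior count of 2, correlations 100000 permutations, and levels per kilobase the exon union of GENCODE M21. Python 3.11.15, NumPy 2.4.6 and pandas 2.3.3 were used. The 10 members, 177 list genes in all and the rule for genes named from the lists (up to 2 called genes at either end of a list, cell type markers only by list with exceptions for lymphatic genes, which were picked after their values were seen) were chosen with earlier results of these data known. Input and IP of a tumor share a homogenate, which pairs them. Their deviations from group means correlated at −0.08 to 0.70, over 0.1 in 8 of 10 tumors. Nothing pairs tumors across treatments. Per the labels, cells were implanted at 1 site per mouse, so the tumors of a group were taken as separate mice. Precision was limited by the 5 tumors per group and, for Fmod and Fap, by counts. Gene lists covering other cell types were endothelial, lymphatic endothelial, macrophage, lymphoid, mural, epithelial, mesenchymal tumor state and adipocyte.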

Additional observations from a re-analysis of the deposited data

Results flagged for a closer look

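In 5 of 40 member and group combinations, the highest of 5 libraries lay apart from the other 4 by Dixon's criterion (gap over range above 0.71). About 2 would be expected of independent, normally distributed values. The values are linear CPM, which need not be normal, and members share libraries, so 5 against 2 is not read as an excess. Control IgG input replicate 1 had Bgn at 559 CPM (others 176 to 278) and Postn at 644 CPM (others 172 to 274). 6-3-A6 IP replicate 2, the IP library with the lowest endothelial level, had Vcan at 18.7 CPM (others 3.42 to 6.74) and Fn1 at 9934 CPM (others 1215 to 2542). 6-3-A6 IP replicate 5 had Postn at 669 CPM (others 119 to 255).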

How the results depend on the processing

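Of the values for single members, 247 kept direction and side of the threshold under alternatives other than leaving out a library, 16 turned direction, 11 gained and 14 lost the call. The number of members called fell from 6 to 3 in IP against input with library totals alone (39.1% of all genes called, against 40.4%) and to 4 in the tumors of the kept libraries (23.2%), where the calls of Dcn (−0.76, edgeR adjusted p = 0.0799) and Fmod (−1.05, 0.0809) were lost at differences of a similar size. In control IgG tumors (1 member) it was 2 with DESeq2, voom or the tumor as block (15.5%, 34.2% and 22.4% of all genes) and 0 with DESeq2 size factors, library totals or no filter (11.5%, 11.4% and 4.19%; reported fit 11.4%). In 6-3-A6 tumors (2 members) it was 5 with voom or the tumor as block (38.7% and 38.3%) and 0 with totals or no filter (24.9% and 10.6%; reported fit 26.3%). In the 6 IP libraries (1 member) it was 3 with DESeq2 (8.94%), 4 without a filter (5.44%), 5 with voom (13.4%), and 0 with totals (4.41%) or the endothelial covariate (0.00714%; reported fit 4.61%). Each correlation (1 member) fell to 0 without the 2 farthest libraries, and that with input rose to 2 with totals.

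Direction turned in IP against input for Lum (−0.027 with the tumor block, −0.10 in tumors of kept libraries, −0.081 without control IgG 1 and 6-3-A6 5), Fn1 (−0.27 with voom, −0.011 with the block, −0.072 in kept tumors) and Postn (−0.013 with the block, −0.0050 without the same 2 tumors). In input it turned for Dcn (−0.0093 with totals, −0.11 with voom), Bgn (−0.093 with totals, −0.055 without a filter) and Pdgfra (−0.020 with replicate numbers as block, which pair nothing there and changed no call). In IP it turned for Pdpn (0.23 with the covariate, 6 libraries), Fmod (−0.40) and Vcan (−0.17, both voom, 10 libraries). None of these values was called, and the cause was not tested.

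With 1 library left out, 5 to 7 members were called in IP against input, 0 to 2 in control IgG, 0 to 3 in 6-3-A6 and 0 to 1 in the 6 IP libraries. Values ranged in IP against input from −0.13 to 0.19 for Lum, −0.14 to 0.34 for Fn1 and −0.14 to 0.34 for Postn. In input they ranged from −0.19 to 0.27 for Dcn, −0.42 to 0.11 for Lum, −0.16 to 0.41 for Bgn, −0.015 to 0.28 for Vcan, −0.12 to 0.14 for Pdgfra, −0.37 to 0.053 for Fap and −0.48 to 0.28 for Postn. Fmod in input ranged from −0.59 to −0.058, Fn1 from −0.47 to −0.17 and Pdpn from −0.41 to −0.21. In the 6 IP libraries Pdpn ranged from −0.36 to 0.073, Fn1 from −1.52 to −0.62, Postn from −1.49 to −0.64 and Pdgfra from −0.995 to −0.43. In all 10 Fmod ranged from −0.26 to 0.28, Vcan from −0.44 to 0.40 and Fn1 from −0.82 to 0.50. Over the same 10, Dcn ranged from −0.71 to −0.28, Postn from −1.21 to −0.13 and Pdpn from −0.21 to −0.016. The block changed no other call. For the 6 IP libraries no paired analysis was possible because the groups share only replicate number 4. The tumor pair test and the fit without 2 tumors were added after the data were seen. Scaling of libraries nearly cancels in the pair test, with small differences left by the prior count, so its repeat with library totals is no separate check.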
